A study of Homo sapiens with 12 samples.

Results

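The untreated control group of this experiment comprised 4 of 12 Huh7 samples, chosen by their titles as Huh7 cells left untreated for 24 h. Huh7 is an established human hepatoma line, so all 4 samples come from a single line and not from different donors. The cells grew in high-glucose Dulbecco's medium with fetal bovine serum, antibiotics and glutamine, in 24-well plates, and received no recombinant protein, vehicle or control protein. The other 8 samples, 4 with human and 4 with mouse erythroferrone, were not compared here and entered only the shared normalization. Total RNA was hybridized as biotin-labelled cRNA to Illumina bead arrays with 47323 probes. The labels number the controls 1 to 4 as replicates, but nothing states whether they came from separate cultures, so the spread among them may be technical.

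Hepatocytes secrete most plasma proteins, albumin foremost, and fetal liver cells and many hepatomas also make alpha-fetoprotein. Hepatocytes are the main source of hepcidin, the peptide hormone that limits the release of iron into blood through the exporter ferroportin. The hepcidin gene HAMP is switched on by bone morphogenetic proteins (BMPs), which act through receptor kinases and SMAD proteins, and by interleukin-6, which acts through STAT3. Untreated Huh7 cells are the baseline against which such signals are read, and the question here was which of these genes the cells expressed and how closely the 4 arrays resembled each other.

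The genes used as markers of this line, ALB, AFP and HAMP, are shown with the 250 bases before their RefSeq transcription start, because the first and second were among the brightest genes on the arrays while the third lay far below them. The sequences are from RefSeq, assembly GRCh38.p14, on the plus strand, at chr19:35282278-35282527 for HAMP, chr4:73404037-73404286 for ALB and chr4:73435971-73436220 for AFP. Capitals mark matches, on either strand, to GGCGCC (the core of the BMP-responsive element), TTCNNNGAA (a STAT site), CCAAT (the CCAAT box, ATTGG on the minus strand) and TATAAA (the TATA box).
HAMP: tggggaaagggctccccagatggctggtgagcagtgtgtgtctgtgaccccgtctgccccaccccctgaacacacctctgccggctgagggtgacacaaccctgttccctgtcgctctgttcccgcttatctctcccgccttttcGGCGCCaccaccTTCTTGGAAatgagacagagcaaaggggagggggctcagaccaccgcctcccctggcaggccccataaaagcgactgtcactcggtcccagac
ALB: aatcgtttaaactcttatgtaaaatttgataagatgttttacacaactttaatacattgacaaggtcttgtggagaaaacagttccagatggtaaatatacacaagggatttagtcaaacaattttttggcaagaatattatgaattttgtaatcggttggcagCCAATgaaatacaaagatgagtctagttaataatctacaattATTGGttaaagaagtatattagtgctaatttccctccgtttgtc
AFP: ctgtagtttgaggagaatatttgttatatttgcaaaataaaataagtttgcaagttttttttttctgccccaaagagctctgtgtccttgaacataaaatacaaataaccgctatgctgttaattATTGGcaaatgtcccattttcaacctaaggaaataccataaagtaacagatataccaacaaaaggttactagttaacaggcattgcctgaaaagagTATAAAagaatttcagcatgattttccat
The HAMP window held GGCGCC from 105 to 100 bases before the start and TTCTTGGAA from 93 to 85 bases before it, with no overlap between them. The ALB window held CCAAT from 86 to 82 bases before the start on the plus strand and from 44 to 40 bases before it on the minus strand. The AFP window held a CCAAT box on the minus strand from 125 to 121 bases before the start and TATAAA from 29 to 24 bases before it. Among 35116 RefSeq promoter windows of 250 bases, 16.4% held GGCGCC, 6.6% TTCNNNGAA, 32.0% CCAAT and 10.7% TATAAA. A match describes the letters of the window and was not tested as a binding site.

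The signals are given as log2 of the background-corrected and quantile-normalized intensity, in the order of replicates 1 to 4. A probe counted as detected on an array where its deposited detection p-value, which compares it with negative controls, was under 0.05, and a gene where any of its probes did. Between 36.7% and 37.9% of the probes were detected per array. The lowest detected signals were 5.35 to 5.41, and undetected probes had medians of 4.75 to 4.76, so a value near 4.75 is background. Of 20046 named genes, 9406 were detected on 4 of 4 arrays, which is 46.9%, and 8085 on none, which is 40.3%; these are the shares against which the gene groups below are read. The detected genes had a median log2 signal of 8.56, with the 10th percentile at 6.11 and the 90th at 11.69. Over 9406 detected genes the difference between a pair of arrays had an SD of 0.223 (replicates 2 and 3) to 0.287 (replicates 1 and 4), and 15 to 52 genes differed over 2-fold. Genes not detected on replicate 4 are left out of the 9406 by construction, among them 33 of the 62 variable genes described below. The pairs with replicate 4 therefore leave such differences uncounted. Replicate 4 stood apart from the others in transcripts of antigen-presenting cells and of the interferon response, which is described with the variable genes, and counts that rest on it are given with and without it.

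Of the markers of this line, albumin and alpha-fetoprotein gave signals near the top of the range and hepcidin a low one. ALB, which encodes serum albumin, had log2 signals of 14.37, 14.45, 14.37 and 14.38, and its second probe read 14.08, 14.33, 14.20 and 14.34. AFP, the fetal counterpart of albumin, had 14.06, 14.13, 14.19 and 14.25. The HAMP probe read 6.94, 7.26, 7.22 and 6.60 and was detected on all 4 arrays. ALB held rank 2 of 20046 named genes by mean signal (ranks 1 to 5 over the arrays), AFP rank 39 (15 to 63) and HAMP rank 7067 (6710 to 7700), which is the 25th percentile of the detected genes. The gap between ALB or AFP and HAMP was thus far larger than the spread of any of them, with SDs of 0.04, 0.08 and 0.30 over 4 arrays. Probes differ in how well they bind, so this is an order of signals and not of transcript amounts. AFM, the afamin gene and another member of the albumin family, was detected on all 4 arrays at 5.91, 5.77, 5.97 and 5.48, close to the lowest detected signals.

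**Figure D1:**
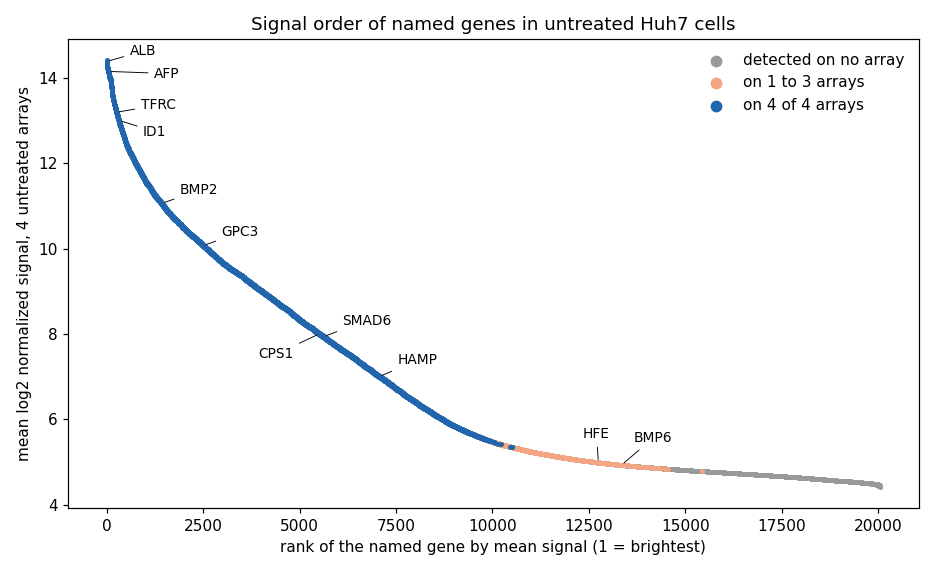
Mean log2 normalized signal of each named gene over the 4 untreated arrays (vertical axis) against its rank from the brightest (horizontal axis), coloured by the number of arrays that detected it. ALB and AFP lie at the left end of the curve, HAMP at rank 7067, and HFE and BMP6 in the flat part near background.

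The 30 brightest genes held 13 genes of ribosomal proteins and a pair of plasma proteins, ALB and APOA2. EEF1A1, which encodes the elongation factor that brings aminoacyl-tRNA to the ribosome, came first with 14.24, 14.42, 14.51 and 14.51. TXN, the redox protein thioredoxin, followed ALB at a mean of 14.34, and FTL, the light chain of the iron store ferritin, at 14.32. APOA2, an apolipoprotein of high-density lipoprotein, had rank 8 with 14.16, 14.36, 14.30 and 14.34. Other genes among the 30 were TPT1, the translationally controlled tumour protein, ACTG1, a cytoplasmic actin, UBB, a polyubiquitin gene, OAZ1, the inhibitor of ornithine decarboxylase, and SLC25A5 and ATP5F1B, the mitochondrial ADP/ATP carrier and a subunit of ATP synthase. The mean signals of the 30 genes lay between 14.20 and 14.42 with SDs of at most 0.14. In all 29 pairs of neighbours in this order the means differed by no more than the larger SD of the pair, so the order within the 30 is not resolved. Among them, ATP5F1EP2 and RPL13AP5 are pseudogene symbols, whose probes cannot be told apart from near-identical parent genes. With the mean of the detected probes of each gene in place of its brightest probe, 19 of the 30 genes were shared.

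Plasma proteins of hepatocytes gave high signals: 25 of 28 members were detected on all 4 arrays, against 46.9% of all named genes, and their median log2 signal was 11.73 against 5.47 for all named genes. TF, which encodes the iron carrier transferrin, had 14.01, 13.92, 13.97 and 14.16. APOA1, the main apolipoprotein of high-density lipoprotein, had 14.00, 14.01, 14.06 and 13.82. The fibrinogen chains FGB, FGG and FGA had means of 13.69, 13.60 and 13.18. All 4 arrays gave these genes much the same signal, and no member of the group had an SD above 0.27. Small SDs were usual for bright genes: the variance model used below expected 0.07 for ALB and 0.08 for AHSG. TTR, the thyroid hormone carrier transthyretin, had a mean of 13.58, SERPINA1, the elastase inhibitor alpha-1-antitrypsin, 13.39, and ORM1, the acute phase protein orosomucoid, 13.32. At the lower end were F2, the prothrombin gene, at 8.02, 8.04, 7.67 and 7.49 and HP, which encodes the haemoglobin-binding protein haptoglobin, at 6.98, 7.05, 6.72 and 6.87. Not detected on any array were CP, the copper ferroxidase ceruloplasmin, F9, coagulation factor IX, and C3, the central complement component, with means of 4.61, 4.79 and 5.0. A gene not detected gave no signal above the negative controls with the probes of this array, which does not show that its transcript is absent.

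The enzymes and transporters of the mature hepatocyte were detected less widely, at 11 of 29 measured members on 4 of 4 arrays, 3 on some and 15 on none. The 11 are 37.9%, not far below the 46.9% of all named genes. Their median log2 signal was 5.11, below the 5.47 of all named genes, and 4 members of the list were not analysed here. Among the urea cycle genes, ASS1, argininosuccinate synthase, had 9.77, 9.89, 9.85 and 9.68, ARG1, arginase, 9.16, 8.95, 8.95 and 8.96, and CPS1, which makes carbamoyl phosphate, 7.90, 7.92, 7.97 and 8.23, while OTC, ornithine transcarbamylase, was on no array (mean 4.98). FAH, the last enzyme of tyrosine breakdown, had a mean of 9.11, and ABCC2, a canalicular exporter of conjugates, 9.09. The uptake transporters SLCO1B3 and SLCO1B1 were detected on all arrays at means of 6.42 and 5.83, and SLC10A1, the bile salt uptake transporter, and ABCB11, the bile salt export pump, on none. All 7 cytochrome P450 genes of the list were undetected: CYP3A4, CYP2E1, CYP1A2, CYP2C8 and CYP2B6 of drug metabolism, and CYP7A1 and CYP8B1 of bile acid synthesis, with means of 4.52 to 4.84. Of the gluconeogenic genes, FBP1, fructose bisphosphatase, was detected on all 4 arrays (mean 6.70), G6PC1, glucose-6-phosphatase, on 1 and PCK1, the cytosolic carboxykinase, on none.

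Of 13 measured transcription factors of hepatocytes, 10 were detected on all 4 arrays, which is 76.9%, against 46.9% of all named genes. A further 5 members of the list were not analysed here. CEBPA, a factor of hepatocyte maturation, was the brightest at 12.88, 12.94, 12.82 and 12.71. The pioneer factors FOXA2, FOXA3 and FOXA1 had means of 11.98, 11.46 and 9.17. CEBPB, an acute phase factor, had 11.62, and RXRA, the shared partner of nuclear receptors, 10.03. ONECUT2, a factor of early liver development, had 7.82, 7.94, 8.23 and 8.70, and its relative ONECUT1 was detected on 3 arrays. Not detected on any array were NR1I3, the xenobiotic receptor CAR, and PPARA, a regulator of fatty acid oxidation.

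Fetal and oncofetal genes were detected in part, 14 of 23 on all 4 arrays, 2 on some and 7 on none. The 14 are 60.9%, against 46.9% of all named genes. After AFP, the brightest was SPINK1, a trypsin inhibitor raised in many hepatomas, at 14.05, 14.11, 14.09 and 14.14. LIN28B, which blocks maturation of the let-7 miRNAs, had 12.31, 12.05, 12.16 and 12.21, while its paralogue LIN28A was on no array (mean 4.55). MDK, the growth factor midkine, had a mean of 11.27, DLK1, a surface protein of hepatoblasts, 11.20, and GPC3, the oncofetal proteoglycan glypican-3, 10.07. The RNA-binding proteins IGF2BP2, IGF2BP3 and IGF2BP1 were all detected, at 9.62, 8.90 and 6.21. IGF2, the fetal growth factor, was detected on 2 arrays only (mean 5.35), and the imprinted H19 RNA on none (mean 4.54). The embryonic and fetal globins HBE1, HBZ, HBG1 and HBG2 were on no array, and CYP3A7, the fetal member of the CYP3A family, was on all 4 at a mean of 5.82.

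**Figure D2:**
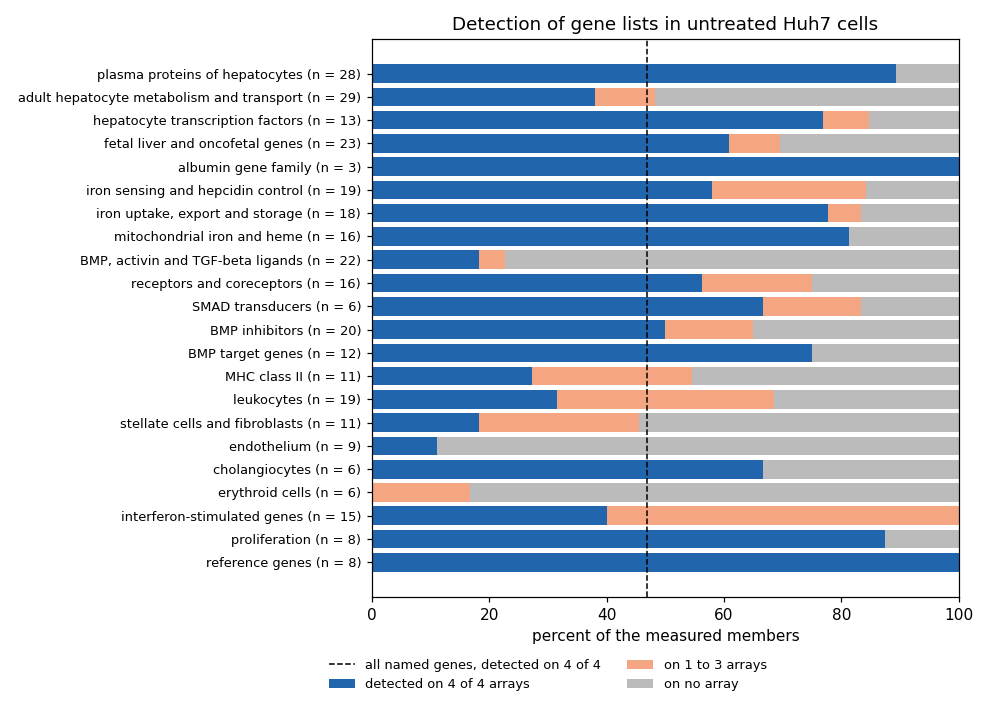
Percent of the measured members of each gene list (n in parentheses) detected on 4 of 4, on 1 to 3 or on none of the untreated arrays; the dashed line is the 46.9% of all named genes detected on 4 of 4. Plasma proteins lie far to the right of the line, and adult metabolism, BMP ligands, endothelium and erythroid genes to the left of it.

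In iron handling, the genes of proteins that carry, take up and store iron were bright, with a median log2 signal of 10.52. On all 4 arrays 14 of 18 measured members were detected, which is 77.8%, against 46.9% of all named genes. A further 2 members were not analysed here. FTL had 14.32, 14.41, 14.24 and 14.30, and TFRC, the receptor that takes up transferrin, had 13.20, 13.22, 13.18 and 13.20. NCOA4, the receptor that carries ferritin to the lysosome, had a mean of 13.38, and the iron chaperones PCBP1 and PCBP2 had 13.04 and 12.95. These values kept close together over the arrays, and TFRC had an SD of only 0.02. Bright genes in general had small SDs: for B2M, of like signal (mean 13.18), the variance model used below expected 0.08. SLC39A14, an importer of iron not bound to transferrin, had 12.20, 12.18, 12.28 and 12.18, and SLC11A2, the divalent metal transporter of endosomes, a mean of 10.03. SLC40A1, the exporter ferroportin, had 11.14, 10.99, 10.99 and 10.96, with a second probe at 8.64, 7.97, 8.10 and 7.49. ACO1, which as an apoprotein binds iron-responsive elements in mRNA, had a mean of 11.75, and FBXL5, an iron-sensing ubiquitin ligase subunit, 9.73. The ferroxidases CP and HEPH and the mitochondrial ferritin FTMT were on no array.

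Of the genes that sense iron and set hepcidin, 11 of 19 measured members were detected on all 4 arrays, 5 on some and 3 on none. The 11 are 57.9%, not far above the 46.9% of all named genes, and 1 member was not analysed here. HJV, the BMP coreceptor hemojuvelin, was detected on all 4 at 5.77, 5.89, 6.05 and 6.03, a little above the lowest detected signals. TFR2, the second transferrin receptor and an iron sensor of hepatocytes, read 5.90, 5.94, 5.12 and 5.31 and was detected on 2 arrays. TMPRSS6, the protease that cleaves hemojuvelin, read 5.31, 5.73, 5.62 and 5.95 and was detected on 3. HFE, the haemochromatosis protein, was detected on 1 array through 1 of its 3 probes, and its brightest probe read 5.15, 5.17, 4.83 and 4.80. Thus TFRC held rank 247 of the named genes, while TFR2, TMPRSS6 and HFE were at the border of detection. FURIN, a proprotein convertase that cleaves prohepcidin, had a mean of 8.67, and NEO1, the hemojuvelin-binding receptor neogenin, 7.54, 8.23, 8.12 and 8.21. On the interleukin-6 side, IL6ST, the shared signal transducer gp130, had 9.45, 9.44, 9.38 and 9.85, and STAT3 had 8.34, 8.62, 8.51 and 8.20. IL6R, the interleukin-6 receptor alpha chain, and JAK2 were detected on no array, JAK1 on 3 (5.70, 4.92, 5.70 and 6.41) and SOCS3, a feedback inhibitor induced by STAT3, on 2.

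In mitochondrial iron and heme metabolism, 13 of 16 measured members were detected on all 4 arrays, and 2 were not analysed here. The 13 are 81.2%, against 46.9% of all named genes. UROD, uroporphyrinogen decarboxylase of heme synthesis, had a mean of 12.18, and ISCU, the scaffold of iron-sulfur cluster assembly, 11.69. ALAS1, the housekeeping first enzyme of heme synthesis, had 7.26, 7.56, 7.38 and 7.27, and its erythroid counterpart ALAS2 was on no array. FECH, ferrochelatase, had a mean of 8.03. HMOX1, the inducible heme oxygenase, had 8.70, 9.12, 8.52 and 8.20, the widest spread of the detected members with an SD of 0.39. HPX, the heme scavenger hemopexin, had a mean of 10.81. Its receptor LRP1 and the constitutive heme oxygenase HMOX2 were on no array.

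Among BMP, activin and TGF-beta ligands, 4 of 22 measured members were detected on all 4 arrays, which is 18.2%, against 46.9% of all named genes. They were BMP2, GDF15, INHBE and GDF11. Another, TGFB3, was detected on 2 arrays, the other 17 were detected on none, and 1 was not analysed here. BMP2, which in the liver is known chiefly as an endothelial signal to hepcidin, had 10.90, 11.06, 11.02 and 11.26. It held rank 1420, with ranks 1242 to 1557 over the arrays. BMP6, the other main BMP upstream of hepcidin in mice, read 4.84, 5.22, 4.78 and 4.88, at background on all 4 arrays. GDF15, a stress-induced cytokine, had 10.89, 10.95, 10.81 and 10.77, INHBE, a hepatocyte activin chain, 8.61, 8.55, 8.61 and 8.54, and GDF11 8.18, 8.15, 8.07 and 8.22. The undetected ligands include BMP4, BMP5, BMP7, BMP10, INHBA, INHBB, TGFB1 and TGFB2, with means of 4.50 to 4.88. The BMP2 and BMP6 values did not overlap, and those of BMP2 exceeded the lowest detected signal on every array.

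Receptors were detected for each of the BMP, activin and TGF-beta branches, with 1 member not analysed here. On all 4 arrays 9 of 16 measured members were detected, which is 56.2%, not far above the 46.9% of all named genes. Of the type I receptors, ACVR1, the BMP receptor ALK2, had 9.70, 9.44, 9.51 and 9.33 and ACVR1B, an activin receptor, a mean of 9.64. BMPR1B was detected on 1 array, TGFBR1 on 1 and ACVRL1 and ACVR1C on none. Of the type II receptors, TGFBR2 had 11.62, 11.69, 11.75 and 11.68, ACVR2A 8.58, 8.40, 8.40 and 8.63, and BMPR2 7.16, 7.0, 7.13 and 7.24, while ACVR2B was on no array. So the BMP type I receptor ACVR1 and the type II receptors ACVR2A and BMPR2 were all above background on each array. Of the coreceptors, TGFBR3, betaglycan, had a mean of 10.29, RGMB, a relative of hemojuvelin, 5.82, and ENG, endoglin, was on no array.

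Of 6 SMAD transducers, 4 were detected on all 4 arrays, which is 66.7% of a small list, against 46.9% of all named genes. SMAD5, a transducer of BMP receptors, had 10.29, 10.11, 10.29 and 10.19, and SMAD4, the common partner, 10.22, 9.95, 10.28 and 9.98. SMAD1, the paralogue with the same role, read 5.10, 5.21, 4.67 and 5.17 and was detected on no array by either of its probes, and SMAD9 was detected on 2 arrays (mean 5.38). SMAD3 and SMAD2, which carry activin and TGF-beta signals, had means of 8.65 and 6.33. SMAD5 was therefore the one BMP transducer with a signal on all 4 arrays, through its brightest probe, while 1 of its other probes was detected on 3 arrays and 1 on none.

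Inhibitors of the pathway were detected for 10 of 20 measured members, close to the 46.9% of all named genes. FST, follistatin, which binds activins and some BMPs outside the cell, had 13.30, 13.25, 13.30 and 13.38. BAMBI, a decoy receptor without a kinase, had 12.28, 12.12, 12.16 and 12.12. FKBP1A, which binds type I receptors, had a mean of 11.73, and TWSG1, a BMP-binding secreted protein, 9.32. The values of FST and BAMBI differed little among the arrays, with SDs of 0.05 and 0.07, as is usual at such signals: the expected SD of BAMBI was 0.09. The inhibitory SMAD6 had 7.79, 8.03, 8.01 and 7.92 and SMAD7 7.09, 7.19, 7.55 and 7.37. The secreted antagonists NOG, CHRD, CHRDL1, SOSTDC1 and BMPER were on no array, SOST was on 1, and GREM1 was detected on all 4 at a mean of 5.78.

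BMP target genes were detected on all 4 arrays for 9 of 12 members with no ligand added. This is 75% of a small list, against 46.9% of all named genes. ID1, an inhibitor of helix-loop-helix factors and a direct BMP target, had 12.94, 12.95, 13.04 and 13.12. ID3 had 11.93, 12.05, 12.02 and 12.19, and ID2 a mean of 11.11. ID1, ID3 and ID2 lay at percentiles 96.8, 92.4 and 85.3 of the detected genes, with ID1 at rank 305 and HAMP, a target of the same pathway, at rank 7067. ID1 has a second probe at 5.89, 5.48, 5.68 and 5.92, so its rank was 3053 with the mean of the detected probes. MSX1 and HEY1, transcription factors induced by BMPs, had means of 6.72 and 6.49. ID4, ATOH8 and MSX2 were on no array, with means of 4.66, 4.66 and 4.88.

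**Figure D3:**
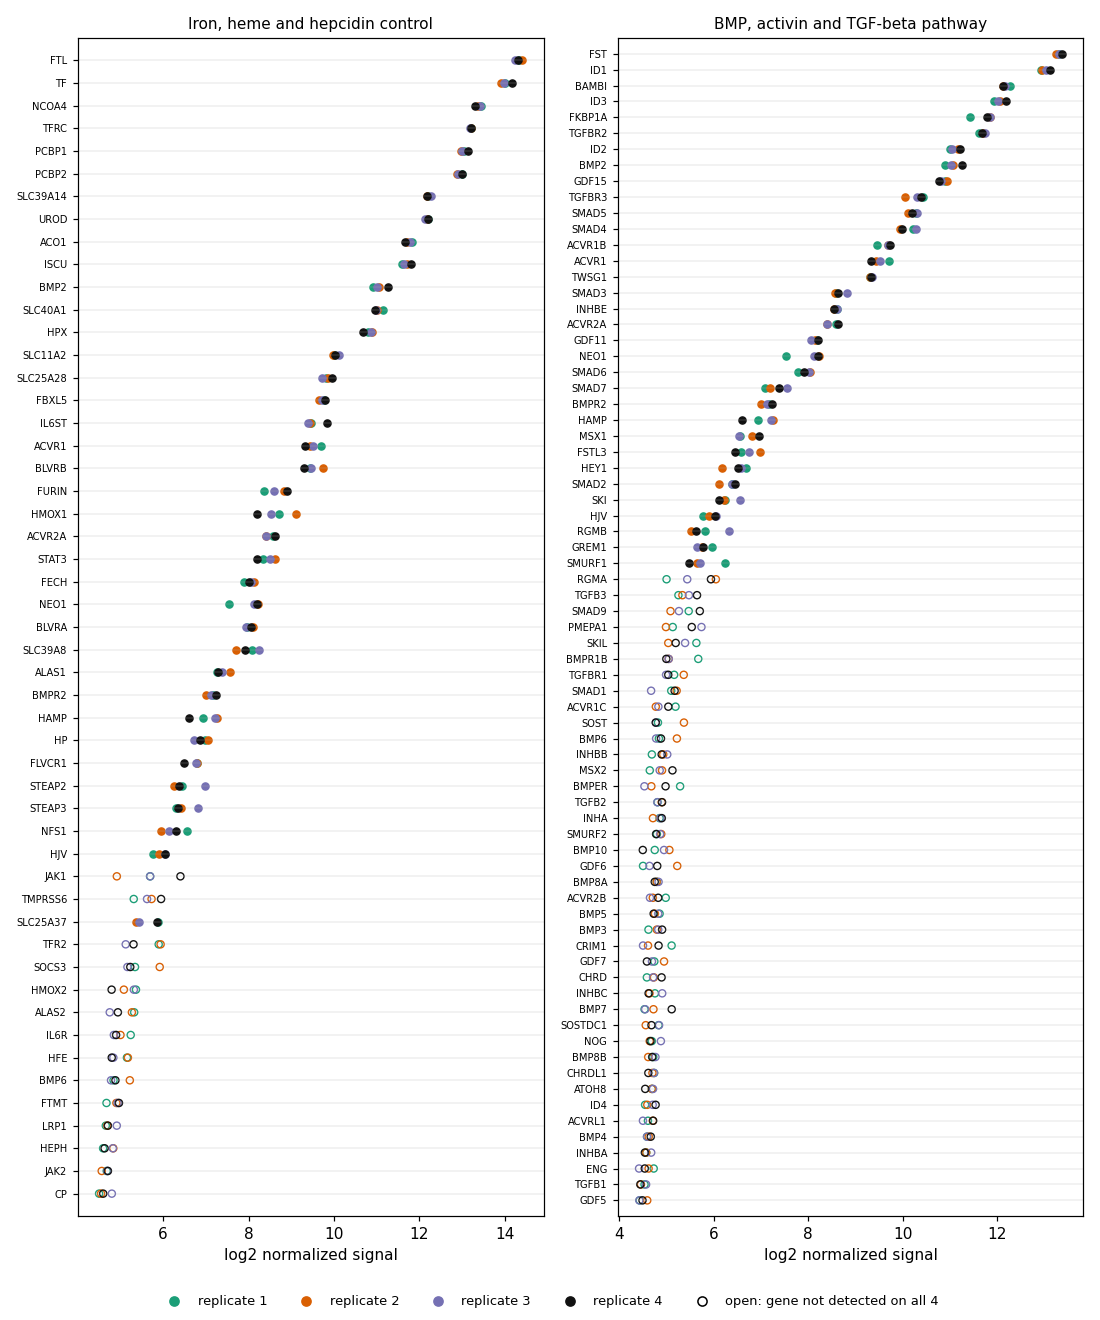
Log2 normalized signal of every measured member of the iron, heme and hepcidin lists (left) and of the BMP, activin and TGF-beta lists (right), 1 point per untreated array and replicate, filled where the gene was detected on all 4. FTL, TF and FST lie at the top with the 4 points close together, and most ligands lie near 4.75 with open points.

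Markers of other liver cell types were mostly at background, with exceptions. Their counts are read against the 46.9% of all named genes detected on all 4 arrays. Endothelial markers were detected for 1 of 9 members, PECAM1 at 6.56, 6.45, 6.67 and 6.59, and VWF, CDH5, STAB2 and LYVE1 were on no array. Of 11 markers of stellate cells and fibroblasts 2 were detected on all 4 arrays, LUM at a mean of 6.98 and PDGFRA at 6.02, and COL1A1, COL3A1, ACTA2 and DES on none. Erythroid markers were detected on all arrays for 0 of 6 members, and the adult globins HBA1, HBA2 and HBB were on no array. Cholangiocyte markers were detected for 4 of 6, EPCAM, SOX9, SPP1 and KRT19 with means of 9.41, 9.54, 9.16 and 7.29, and KRT7 on none. The proliferation genes TOP2A, CDK1, AURKA, PCNA, MCM2, BIRC5 and CCNB1 were detected on all arrays at means of 9.29 to 12.12, and MKI67 on none (mean 4.62). The lists thus gave hepatocyte and proliferation transcripts on every array, beside some markers shared with bile duct cells.

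Leukocyte markers, MHC class II genes and interferon-stimulated genes differed among the arrays. Of 19 measured leukocyte markers, 6 were detected on all 4 arrays, which is 31.6%, against 46.9% of all named genes. They were LYZ, lysozyme, CD14, CD68, LCP1, AIF1 and CD83. LYZ had 13.46, 13.51, 13.40 and 13.60 and CD14 8.60, 8.60, 8.58 and 8.60, nearly the same on each array, whereas PTPRC, the pan-leukocyte antigen CD45, was on no array, nor were CD3E, MS4A1 and CD163. The number of leukocyte markers detected was 12, 11, 12 and 6 on replicates 1 to 4. MHC class II members were detected at 6, 6, 6 and 3 of 11, with a summed linear signal of 3287, 4835, 2656 and 297. Interferon-stimulated genes were detected at 14, 14, 14 and 6 of 15, with a summed signal of 2283, 2991, 2629 and 1136. Replicate 4 was the lowest in each of these counts and in the MHC class II and interferon sums, and replicate 2 was the highest in both sums. The summed signal of the plasma proteins did not follow this order, at 183748, 182544, 180718 and 181241. On all 4 arrays 3 MHC class II members and 6 interferon-stimulated genes were detected, and on replicates 1 to 3 alone 6 and 13, while leukocyte markers went from 6 to 9. Fewer cells of a type and less RNA per cell cannot be told apart in bulk RNA, and what set replicate 4 apart was not tested.

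**Figure D4:**
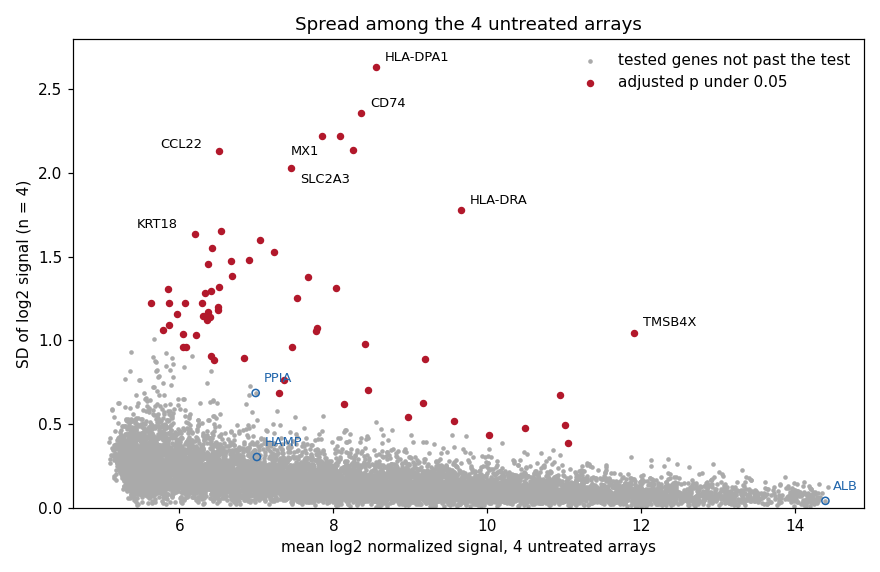
SD of the 4 log2 signals (vertical axis) against their mean (horizontal axis) for 10756 named genes detected on at least 2 untreated arrays, with red points for the 62 genes past the spread test. HLA-DPA1, CD74 and CCL22 lie far above the cloud, and ALB, HAMP and PPIA, circled in blue, lie within or near it.

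Which genes varied most was asked by setting the variance of the 4 log2 values against that of genes of like signal, with limma's robust variance model and Benjamini-Hochberg adjustment. Of 10756 genes detected on at least 2 arrays, 62 had an adjusted p under 0.05, which is 0.576%, and 618 had an unadjusted p under 0.05. The count depends on the model: 4 genes passed with the mean of all probes of a gene (HLA-DPA1, HLA-DRA, SRGN and MX1) and 0 with no trend of the variance, where 372 had an unadjusted p under 0.05 and the smallest adjusted p was 0.891. The median SD of the tested genes was 0.144, and 42 of the 62 had an SD above 1. Replicate 4 was lowest in 53 of the 62 and highest in 8, and 38 had replicate 4 lowest and replicate 2 highest. Over all tested genes, replicate 4 was lowest in 27.5% and highest in 26.4%, so the other tested genes did not share this order. On replicate 4, 33 of the 62 were not detected. Without replicate 4, 25 genes passed, 24 of them among the 62, and replicate 2 was highest in 20 of these 25. Without replicate 2, 25 genes passed as well.

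Genes of antigen presentation led the variable genes. HLA-DPA1, an MHC class II alpha chain, read 9.74, 10.37, 9.44 and 4.64 (SD 2.63, adjusted p = 1.31e-08 by limma's variance test). CD74, the invariant chain that guides class II molecules, read 9.31, 10.09, 9.14 and 4.87, with a further probe at 8.59, 9.51, 8.29 and 4.58. Its remaining probe was detected on no array, at 4.78, 4.86, 4.79 and 4.47. HLA-DRA, the alpha chain of HLA-DR, read 10.39, 11.01, 10.18 and 7.04, and its second probe 10.71, 11.48, 10.46 and 5.46. Apart from that undetected CD74 probe, replicates 1 to 3 were all high in these 3 genes. On replicate 4, HLA-DPA1 and CD74 were at background. HLA-DRA was lower there than on replicates 1 to 3 but was still detected by both probes, at 7.04 and 5.46. HLA-DMA, which helps load class II peptides, also passed (7.58, 7.35, 6.87 and 5.57), whereas CIITA, the transactivator of class II genes, was detected on no array, at 4.81, 4.79, 5.07 and 5.13. The class II genes HLA-DPB1, HLA-DRB1, HLA-DRB5 and HLA-DOA were also on no array, with means of 4.66, 5.0, 4.64 and 4.99. Without replicate 4, HLA-DPA1, CD74 and HLA-DMA no longer passed and HLA-DRA did. That HLA-DRA result comes from its second probe, which was the brighter on replicates 1 to 3.

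Several leukocyte and cytokine transcripts were low on replicate 4 and had replicate 2 above replicates 1 and 3. CCL22, a chemokine of dendritic cells, read 5.66, 9.50, 6.34 and 4.53. IL1B, interleukin-1 beta, read 6.14, 8.30, 7.27 and 4.44, and IL6, interleukin-6, 5.77, 8.13, 7.19 and 4.61. SRGN, the granule proteoglycan serglycin, read 8.40, 10.33, 8.59 and 5.01, TYROBP, an adaptor of myeloid receptors, 7.08, 8.24, 7.48 and 4.80, and CD83, a marker of mature dendritic cells, 7.10, 8.99, 7.96 and 6.04. Each of these genes was lowest on replicate 4 and highest on replicate 2. CCL22, IL1B, IL6, SRGN and CD83 passed also without replicate 4, and TYROBP did not. LILRB2 and LILRA3, receptors of myeloid cells, were high on replicates 2 and 3 only, with LILRB2 at 4.77, 7.08, 6.87 and 4.67. Both rest on a single probe, since their remaining probes were detected on no array. FCER1A, the alpha chain of the high-affinity IgE receptor, was highest on replicate 1 instead, at 8.19, 6.76, 5.78 and 4.77, as was SLC2A3, the glucose transporter GLUT3, at 9.42, 8.15, 7.60 and 4.63. Thus replicates 1 to 3 differed among themselves in these genes too.

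Of the interferon-stimulated genes, MX1, OAS2 and IFIT2 passed. MX1, an antiviral GTPase, read 8.73, 9.08, 9.05 and 4.53, a step between replicate 4 and the rest. OAS2, which makes the activator of RNase L, read 6.49, 7.50, 6.81 and 4.51. The remaining OAS2 probes were detected on no array, with means of 4.54 to 4.75, so its difference rests on a single probe. CXCL10, a chemokine induced by interferons, read 8.13, 8.72, 9.12 and 6.16 and passed as well. Without replicate 4, none of these 4 genes passed, with adjusted p values of 0.99 for MX1, 0.693 for OAS2, 0.626 for IFIT2 and 0.146 for CXCL10 by limma's variance test. ISG15, a ubiquitin-like protein, did not pass, with 9.25, 9.90, 9.94 and 9.09, nor did IFI6, with 8.84, 9.19, 8.57 and 8.23. B2M, the light chain of class I molecules, read 13.21, 13.11, 13.15 and 13.26 and did not share the order. Class I genes had no list of their own, but HLA-B and TAP1, picked from the genes past the test, shared the order. HLA-B, a class I heavy chain, read 6.54, 7.40, 6.60 and 4.69, and TAP1, a subunit of the peptide transporter, 6.27, 7.01, 6.34 and 4.73. Both passed with all 4 arrays and neither without replicate 4.

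Of the 62 variable genes, the 8 that were highest on replicate 4 by their brightest probe were KRT18, USP22, ALYREF, MOCS2, FADS2, ATG4B, MAEA and RRM2. KRT18, a keratin of simple epithelia and of hepatocytes, read 5.81, 5.36, 5.02 and 8.60, and its second probe 5.40, 4.99, 4.73 and 6.33. Its partner KRT8, looked up after these values were seen, read 12.53, 12.79, 12.68 and 12.54 and did not share the difference. USP22, a deubiquitinase of the SAGA complex, read 6.15, 5.87, 5.40 and 8.06 and ALYREF, an mRNA export factor, 5.89, 5.73, 5.50 and 7.75. A second probe of each was detected on no array and read 4.66 to 4.88 for USP22 and 4.83 to 5.33 for ALYREF, so these differences rest on 1 probe. The second probe of ATG4B was likewise detected on no array, and that of MAEA, also highest on replicate 4, on 1. For MOCS2, another probe detected on all 4 arrays was lowest on replicate 4 instead, at 6.94, 7.29, 6.93 and 6.64. RRM2, a subunit of ribonucleotide reductase, read 8.54, 8.83, 8.75 and 9.77.

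The listed hepatocyte, iron and BMP genes were not among the variable genes. No member of the plasma protein, adult metabolism, transcription factor, fetal, iron, heme, ligand, receptor, SMAD, inhibitor or target lists passed the test. Of all tested genes only 0.576% passed, and these lists held at most 25 tested genes each. No call in lists of this size is close to that share and does not set these genes apart. HAMP had an SD of 0.30 (adjusted p = 0.985 by limma's variance test) and was lowest on replicate 4 at 6.60. Of the marker lists, 4 tested MHC class II members of 6 passed, 3 leukocyte markers of 13, 3 interferon-stimulated genes of 14 and 1 cholangiocyte marker of 4. Without replicate 4, these became 1 MHC class II member, 2 leukocyte markers, 0 interferon-stimulated genes and 1 cholangiocyte marker. The cholangiocyte marker was SPP1, the secreted phosphoprotein osteopontin, at 9.32, 9.96, 8.84 and 8.52. PPIA, a reference gene that encodes cyclophilin A, had the widest spread of the reference genes, at 7.0, 6.45, 6.56 and 7.96, but missed the threshold (adjusted p = 0.0838 by limma's variance test). ACTB and GAPDH had SDs of 0.09 and 0.06.

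**Figure D5:**
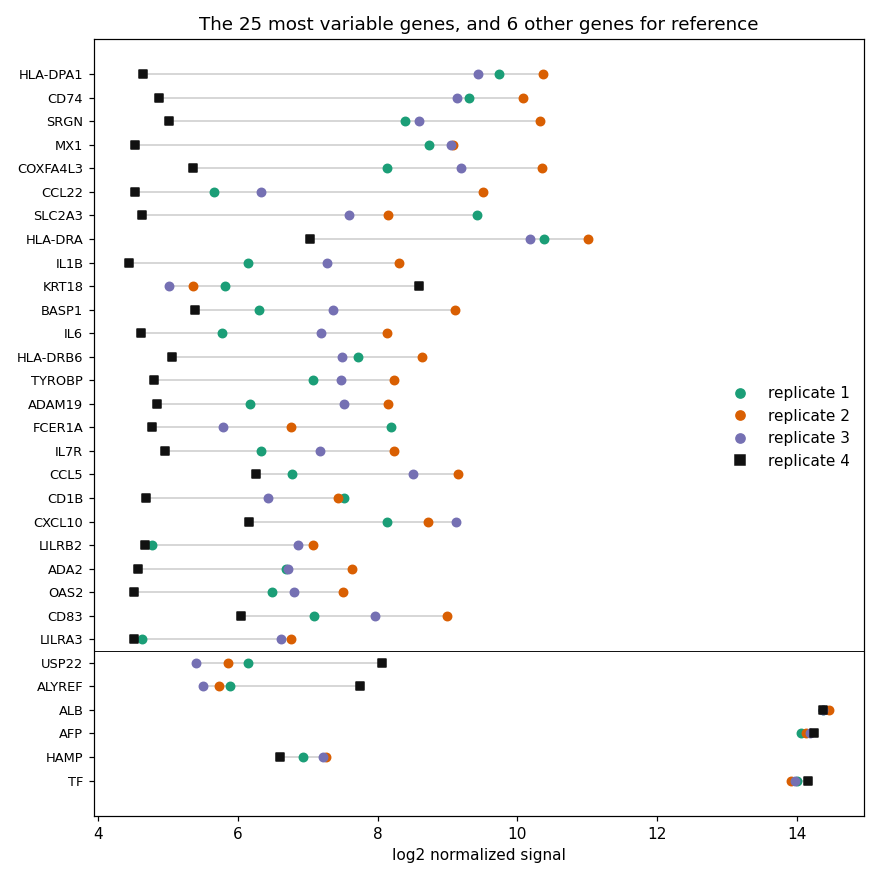
Log2 normalized signal of the 25 genes with the largest SD (above the line) and of 6 other genes (below it) on the 4 untreated arrays, 1 point per array, with a line from the lowest to the highest. Replicate 4, the black square, is lowest in 24 of the 25 and highest in KRT18, and the points of ALB, AFP and TF nearly coincide.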

How the data were processed

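Per the file headers, the deposited table gives an intensity per probe and array, which the values show to be linear, and a detection p-value against the negative controls of the array. Lumi and limma are named, without versions, in the submitters' processing notes, and the handling of background is not given in the sources used here. Both other deposited tables held the same values as the raw table (567876 of 567876 equal in each), so neither was an alternative. Of 47323 probes, 30113 carried 1 gene symbol in the platform annotation, 8 several and 17202 none; 30074 matched the RefSeq table of GRCh38.p14 and 0 were updated. Intensities were background-corrected from the detection p-values, given an offset of 16 (a floor of 4 on the log2 scale), quantile-normalized over all 12 arrays and turned to log2 (limma 3.58.1, statmod 1.5.0, R 4.3.3). A gene took its probe with the highest mean over the 4 untreated arrays. The spread test used limma's fitFDistRobustly on the variance of the 4 values with mean signal as covariate, over genes detected on at least 2 arrays, with Benjamini-Hochberg adjustment at 0.05. Precision is set by the 4 arrays, which carry no read depth. Named were the 30 brightest and the 25 most variable genes, ALB, AFP and HAMP, all members of the iron, heme and BMP lists, and of every other list up to 8 members detected on all arrays and up to 8 on none; other genes named, among them further list members, other variable genes, KRT8 and LAIR1, were chosen after their values were seen. The members, the 22 lists (321 genes) and the tests were chosen with earlier results of these data known. Alternatives varied the detection threshold, the probe rule, the normalization, the filter, the variance model and the arrays included. Some list members are not reported here.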

Additional observations from a re-analysis of the deposited data

Results flagged for a closer look

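Of 230 genes picked for the description and detected on at least 1 array, 15 (6.5%) had 1 array far from the other 3. Far means beyond Dixon's 95% limit for 4 values, which chance passes in about 1 in 20 genes not picked by their values. The 230 include the 62 genes past the spread test on these same arrays, so this share cannot be set against that rate. Replicate 1 was the far array in 5 of the 15, replicates 2 and 4 in 4 each and replicate 3 in 2. On replicate 4, HLA-DPA1 was low at 4.64 against a mean of 9.85 on the other arrays, MX1 low at 4.53 against 8.95, the heme exporter FLVCR1 low at 6.48 against 6.79, and IL6ST high at 9.85 against 9.42. On replicate 1, PTGES3, a cochaperone of HSP90, was high at 11.20 against 10.26, the replication clamp PCNA high at 12.49 against 12, BMPR1B high at 5.67 against 5.03, ARG1 high at 9.16 against 8.95, and NEO1 low at 7.54 against 8.18. On replicate 2, RUNX3, a transcription factor of lymphocytes, was high at 7.47 against 5.57, SOST high at 5.37 against 4.79, ALB high at 14.45 against 14.37, and RPL9 high at 14.33 against 14.19. On replicate 3, RPL13AP5 was high at 14.38 against 14.22 and CD14 low at 8.58 against 8.60. The distances of ALB, RPL9, RPL13AP5 and CD14 are small in size, since the other 3 arrays nearly coincided.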

How the results depend on the processing

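The counts of detected genes and of genes detected on no array stayed within 1.5 times their main value under all 7 and 6 alternatives. Of the recounts of list members, 129 did so and 3 did not, namely MHC class II (6) and interferon-stimulated genes (13) without replicate 4 and stellate cell markers (1) at a detection p under 0.01. The 30 brightest genes shared 19 members with the order by the mean of the detected probes, under which BMP2 had rank 1161, ID1 3053, TF 50 and TFRC 180. The number of variable genes, 62 in the main setting, was 18 among genes detected on 4 of 4 arrays, a filter that removes by construction those undetected on replicate 4, and 95 among genes detected on at least 1. It was 4 with the mean of the probes of a gene and 0 with no trend of the variance in limma's model, where 372 genes still had an unadjusted p under 0.05, and the cause was not tested. Leaving out 1 array gave 25 to 79 variable genes, with 25 both without replicate 2 and without replicate 4. The other normalizations gave 61 to 89. Of the recomputed spreads of the 25 most variable genes, 212 kept the call and 64 lost it. Each of the 25 lost it with no trend of the variance. No paired analysis was possible because a single group was described and no test compared groups. Signal over background limits what the low genes show: values between about 4.75 and 5.4 are not separated from the negative controls.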

Other observations

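Detection differed by gene biotype: 50.9% of 17774 protein-coding genes were detected on all 4 untreated arrays, against 13.9% of 798 lncRNA genes, 3.7% of 561 miRNA genes, 26.5% of 279 snoRNA genes and 23.3% of 528 transcribed pseudogenes. Among the probes with no gene symbol, 2886 (16.8%) were detected on all 4 arrays. LAIR1, an inhibitory receptor of leukocytes, held rank 36 by a probe at 14.33, 14.24, 14.06 and 14.08, while its other probe read 4.83, 5.69, 5.2 and 5.16 and was detected on 1 array, so its rank rests on 1 probe. PPIA had a mean of 6.99 from its 1 probe, while PPIAL4A, a near-identical copy of it, had rank 10 at 14.35, 14.22, 14.33 and 14.23, and signals of such near-identical copies cannot be told apart.

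Other variable genes included CXCL8, the neutrophil chemokine interleukin-8, at 11.11, 11.54, 11.06 and 10.34, TMSB4X, an actin-binding thymosin, at 12.18, 12.91, 12.08 and 10.43, and CDKN1A, the cell cycle inhibitor p21, at 8.85, 10.22, 9.54 and 8.16. All 3 were lowest on replicate 4 and highest on replicate 2. The second probes of TMSB4X and CDKN1A were detected on no array, so the differences of these genes rest on a single probe each. MYL12A, a myosin light chain, and SLC38A2, an amino acid transporter, were highest on replicate 1 instead, at 11.89, 10.76, 10.86 and 10.28 and at 11.53, 10.82, 11.17 and 10.65.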
